A study of Mus musculus with 6 samples.

Results

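The 9 genes described here encode the PPAR, RXR and C/EBP transcription factors: *Ppara*, *Pparg* and *Ppard*, *Rxra*, *Rxrb* and *Rxrg*, and *Cebpa*, *Cebpb* and *Cebpd*. They were taken as the rows whose Ensembl identifier carries one of these symbols in the GENCODE annotation of the mouse genome (GRCm38), and all 9 were found among the 46517 genes counted. RNA-seq was run on inguinal white adipose tissue (IngWAT, the subcutaneous fat of the groin) of C57Bl6 mice aged 5-9 months and fed chow. The H3atKO group carries floxed *Hdac3* alleles and a Cre recombinase driven by the adiponectin (Adipoq) promoter, which removes the histone deacetylase HDAC3 from adipocytes, while the other cells of the tissue keep it. The control group, floxed, carries the floxed *Hdac3* alleles as well. Each group had 3 samples, and each sample was a pool of RNA from 2 or 3 mice. The comparison asks how the abundance of these factors' transcripts in fat differs between H3atKO and floxed mice.

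PPARs are nuclear receptors for fatty acids and their derivatives, and they bind DNA as dimers with RXRs, the receptors that also pair with the liver X, retinoic acid, thyroid hormone and vitamin D receptors. PPARγ and C/EBPα drive and maintain the fat cell programme and raise each other's transcription, and C/EBPβ and C/EBPδ act earlier in adipocyte formation. PPARα, best known from liver and brown fat, switches on enzymes of fatty acid oxidation. HDAC3 is the enzyme of the NCoR and SMRT corepressor complexes, which nuclear receptors recruit when no activating ligand is bound.

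The stretches of 250 bases before the transcription starts of 4 members are shown, for the pair whose transcripts rose in H3atKO mice and for the pair most abundant in this tissue. They come from RefSeq on GRCm38.p6 and run 5′ to 3′ on the plus strand, on which all 9 genes lie. Capitals mark matches to the GC box (GGGCGG), to the box that NF-Y binds (CCAAT) and to the TATA box (TATAAA). All were searched on both strands, so that a match on the minus strand appears as its reverse complement.
Ppara, chr15:85735526-85735775: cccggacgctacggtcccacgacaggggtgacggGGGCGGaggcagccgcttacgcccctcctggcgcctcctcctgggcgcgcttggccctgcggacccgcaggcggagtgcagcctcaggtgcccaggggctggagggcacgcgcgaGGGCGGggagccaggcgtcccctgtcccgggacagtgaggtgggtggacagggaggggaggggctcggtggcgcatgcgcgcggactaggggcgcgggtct
Cebpb, chr2:167688665-167688914: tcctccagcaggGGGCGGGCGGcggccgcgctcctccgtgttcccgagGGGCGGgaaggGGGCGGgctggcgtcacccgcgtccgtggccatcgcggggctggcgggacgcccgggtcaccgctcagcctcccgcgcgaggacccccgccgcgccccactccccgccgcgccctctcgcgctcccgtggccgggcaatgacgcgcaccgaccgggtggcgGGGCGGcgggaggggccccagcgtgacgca
Cebpa, chr7:35119043-35119292: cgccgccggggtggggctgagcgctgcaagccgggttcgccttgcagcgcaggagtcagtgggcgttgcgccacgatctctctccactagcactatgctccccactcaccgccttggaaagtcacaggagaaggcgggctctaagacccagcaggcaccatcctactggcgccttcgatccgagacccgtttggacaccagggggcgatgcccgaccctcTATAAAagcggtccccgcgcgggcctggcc
Pparg, the downstream start, chr6:115421816-115422065: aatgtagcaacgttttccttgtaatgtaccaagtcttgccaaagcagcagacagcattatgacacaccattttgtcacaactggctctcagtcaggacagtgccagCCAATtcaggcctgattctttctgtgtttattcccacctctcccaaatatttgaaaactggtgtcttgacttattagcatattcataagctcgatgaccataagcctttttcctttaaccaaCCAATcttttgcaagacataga

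The *Cebpb* stretch had a GC content of 81.6%, with 41 CpG and 5 GC boxes, a pair of which overlap. *Ppara* followed with 76.4%, 27 CpG and 2 GC boxes, while *Cebpa* had 66.4%, 22 CpG and 1 TATA box. All 3 lay above the upper quartile of the stretches of the same length in the RefSeq table (32851 stretches, quartiles 45.2%, 52.4% and 61.2%). The downstream *Pparg* start was different, with 40.8% GC, 2 CpG and 2 CCAAT matches, and the upstream *Pparg* starts had 82.4% and 63.6%. GGGCGG was found in 32.7% of all stretches, CCAAT in 33.8% and TATAAA in 12.4%. A direct repeat of AGGTCA with 1 base between the copies, the element that PPAR and RXR dimers bind, occurred in none of the members' stretches and in 0.0335% of all. These matches describe letters and not binding. *Ppard*, *Rxra*, *Rxrb* and *Rxrg* were also in the table, and *Cebpd* was not.

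Counts on genes ranged from 30240920 to 35200685 in floxed and from 23865507 to 29071526 in H3atKO samples, so that 3 counts were worth 0.0659 to 0.19 cpm (counts scaled by library size) after TMM scaling, the unit of all levels below. In H3atKO samples *Hdac3* was 20.5 cpm ± 7.28 (SD, n = 3) against 71.7 ± 7.61 in floxed, a log2 fold change of -1.83 (SE 0.317; limma voom, adjusted p = 0.0213). The genotypes also differed in how level depended on base composition. The deviation of a gene from its mean over the 6 samples rose with the GC content of its transcript in every floxed sample (Spearman's rho across genes 0.0969 to 0.8) and fell with it in every H3atKO sample (-0.711 to -0.433). Genes are not independent replicates, and this property and the genotype cannot be told apart in these libraries. Mitochondrially encoded transcripts took 6.92 to 12.9% of the counts in floxed and 26.9 to 35.3% in H3atKO samples. Each member's change is therefore given as fitted and after a correction for GC content. Since same-numbered pools deviated together, it is also given with the replicate number as a block where that changes the call. For genes of the lists these values are given in part.

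*Ppara* and *Cebpb* rose in H3atKO mice, by 4.14-fold and 3.67-fold, and were the members called by limma voom at an adjusted p under 0.05. The other 7, with *Pparg* among them, were not called. Of the 14967 genes tested, 9.42% were called higher and 7.07% lower. By unadjusted p under 0.05, 2 members were higher and 3 lower, beside 20.4% and 23.4% of tested genes. The edgeR quasi-likelihood test and DESeq2 each called 2 higher and 3 lower, beside 12.8% and 18.4% of genes by edgeR and 19.7% and 23.2% by DESeq2. Without floxed sample 3, limma called 2 members higher and 5 lower, namely *Ppard*, *Cebpa* and the 3 RXR genes (adjusted p = 0.0072 to 0.0405). Calls over all tested genes were also more numerous in that fit, 2729 higher and 3828 lower, against 1410 and 1058 with all samples. Every H3atKO sample was above every floxed sample for 2 members (23.1% of tested genes) and below for 3, *Ppard*, *Rxra* and *Rxrb* (28.6% of tested genes). Both counts are near the shares among all genes. With the replicate block 2 members were called higher and 5 lower, against a background of 24.8% and 28.7%. After the GC correction 2 were called higher and 0 lower (background 5.55% and 3.06%). With the block and the correction together 3 were higher and 1 lower (background 13.1% and 9.71%). The median log2 fold change of the members was -0.93 as fitted and 0.19 after the GC correction, beside -0.09 and 0.03 over all tested genes.

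**Figure D1:**
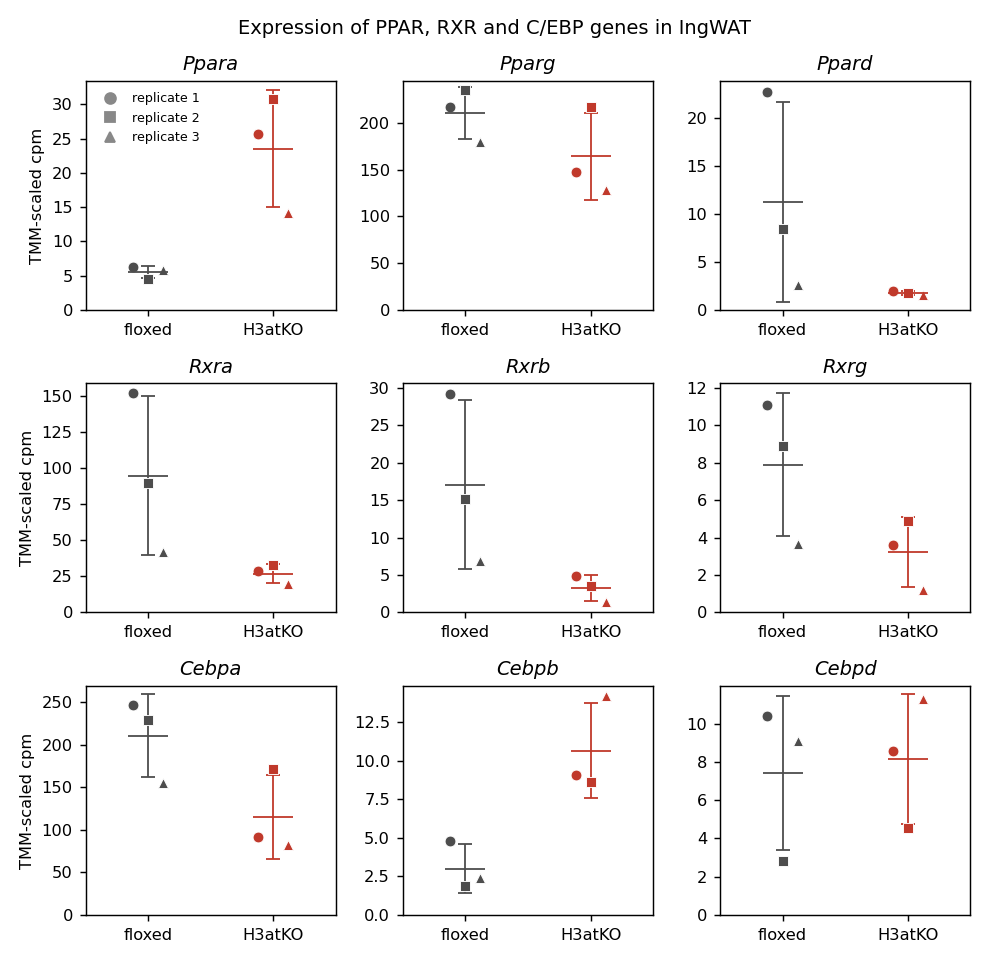
TMM-scaled cpm (y axis, from 0, a scale of its own in each panel) of the 9 members in the 3 floxed (grey) and 3 H3atKO (red) samples, with the replicate number as the symbol; the horizontal bar is the mean and the vertical bar the SD. *Ppara* and *Cebpb* lie wholly above floxed in H3atKO samples, *Ppard*, *Rxra* and *Rxrb* wholly below, and the spread among floxed samples is wide for the latter.

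Among the PPARs, *Ppara* was at 6.24, 4.59 and 5.83 cpm in floxed samples 1, 2 and 3 and at 25.6, 30.8 and 14.2 cpm in H3atKO samples 1, 2 and 3. The lowest H3atKO sample was above the highest floxed one, and the counts behind these values were 191 to 284 and 225 to 622. The log2 fold change was 2.05 (SE 0.387, 95% confidence interval 1.15 to 2.95, adjusted p = 0.0248 by limma), and 2.58 after the GC correction (adjusted p = 0.0118). The call was lost with library sizes alone (1.19, adjusted p = 0.0664), and without floxed sample 1 or 2 or H3atKO sample 1 or 2 (limma, adjusted p = 0.0684, 0.115, 0.0774 and 0.0631), with values of 1.79 to 2.34 over the 6 samples left out in turn. The gene (ENSMUSG00000022383, chr15:85734983-85802819) has a transcript of 51.45% GC, close to the median of 49.21% over tested genes, and no annotated gene overlaps it.

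*Pparg*, the receptor that maintains the adipocyte and that thiazolidinediones bind, was at 217, 235 and 180 cpm in floxed samples. In H3atKO samples it was at 148, 217 and 128 cpm. The groups overlapped, since H3atKO sample 2 was at the level of floxed sample 1. On the log2 scale the change was -0.39 (SE 0.271, interval -1.02 to 0.25, adjusted p = 0.293 by limma) and -0.12 after the GC correction (interval -0.63 to 0.39). The interval as fitted holds a fall by 1.02 as well as a rise by 0.25, so an equal level in both genotypes is not shown. With library sizes alone, which put the median of all tested genes at -0.95, *Pparg* did not overlap (246 to 323 and 85.1 to 146 cpm) and was called lower (-1.24, adjusted p = 0.0148). The counts join all isoforms of the gene (ENSMUSG00000000440, chr6:115360951-115490399), and an antisense gene in it, Gm44079, held at most 1 count per sample.

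*Ppard*, the member that most tissues express, was at 22.7, 8.46 and 2.55 cpm in floxed samples and at 2.02, 1.78 and 1.52 cpm in H3atKO samples. All H3atKO samples were lower, but floxed samples differed among themselves by 8.89-fold, the widest spread of any member. H3atKO to floxed gave a log2 fold change of -2.16 (SE 0.958, interval -4.39 to 0.08) and missed the threshold (limma, adjusted p = 0.124). It was -1.37 without floxed sample 1 (adjusted p = 0.194) and -2.95 without floxed sample 3 (adjusted p = 0.0107). It was called lower with the replicate block (adjusted p = 0.00965), with the block and GC correction (adjusted p = 0.0486), by edgeR (adjusted p = 0.0371) and by DESeq2 (adjusted p = 0.00201). With the GC correction alone *Ppard* was not called (-1.46, interval -3.39 to 0.46; limma, adjusted p = 0.261).

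Among the RXRs, *Rxra*, the best studied partner of the PPARs, was at 152, 89.7 and 42.2 cpm in floxed samples. It was at 28.5, 32.7 and 19.4 cpm in H3atKO samples, all of them lower than any floxed sample. The log2 fold change of -1.65 (SE 0.511) missed the threshold (limma, adjusted p = 0.0597), and it was called lower with the block (adjusted p = 0.00597), by edgeR (adjusted p = 0.0315) and by DESeq2 (adjusted p = 0.00297). After the GC correction the value was 0.08 (interval -0.39 to 0.54, adjusted p = 0.81), near 0 and without a clear direction. The transcript has 57.04% GC, more than 88.6% of tested genes.

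*Rxrb*, an RXR of broad expression, was at 29.2, 15.1 and 6.88 cpm in floxed and at 4.86, 3.57 and 1.33 cpm in H3atKO samples. The groups did not overlap, though the lowest floxed sample was nearer to the H3atKO samples than to the highest floxed one. Its log2 fold change was -2.30 (SE 0.758; limma, adjusted p = 0.0665). After the GC correction it was 0.19 (interval -0.46 to 0.85), without a clear direction. It was called lower with the block (adjusted p = 0.00298), by edgeR (adjusted p = 0.036) and by DESeq2 (adjusted p = 0.00203), but not with the block and GC correction together (adjusted p = 0.422). *Rxrb* has 61.44% GC, more than 98.5% of tested genes.

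*Rxrg*, the RXR best known from muscle and brain, was at 11.1, 8.92 and 3.67 cpm in floxed and at 3.62, 4.89 and 1.2 cpm in H3atKO samples. The groups overlapped through floxed sample 3. Its change on the log2 scale was -1.32 (SE 0.663; limma, adjusted p = 0.161) and -0.11 after the GC correction (interval -1.09 to 0.87), and it was called lower with the block (adjusted p = 0.0148). Skeletal muscle markers summed to 577 to 2390 cpm in floxed and 2.47 to 3160 cpm in H3atKO samples, and their part in the level of this gene was not tested.

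Among the C/EBPs, *Cebpa* was at 247, 229 and 155 cpm in floxed and at 91.1, 171 and 81.6 cpm in H3atKO samples. H3atKO sample 2 lay above floxed sample 3, so the groups overlapped. The log2 fold change was -0.93 (SE 0.349, interval -1.74 to -0.11; limma, adjusted p = 0.0871), and with the block *Cebpa* was called lower (adjusted p = 0.0213). After the GC correction the direction turned, to 1.74 (interval 0.45 to 3.04, adjusted p = 0.0899), and with both together it was called higher (adjusted p = 0.013). No direction can be given for *Cebpa*, whose transcript has 62.6% GC, more than 99.2% of tested genes.

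*Cebpb*, an early inducer of adipogenesis that also takes part in inflammatory and thermogenic responses, was at 4.79, 1.85 and 2.38 cpm in floxed and at 9.1, 8.62 and 14.2 cpm in H3atKO samples. All H3atKO samples were above all floxed ones, on counts of 77 to 218 and 169 to 225. With library sizes alone floxed sample 1 (6.19 cpm) lay above H3atKO sample 2 (5.81 cpm), so that the groups overlapped. The log2 fold change was 1.88 (SE 0.463, interval 0.80 to 2.95; limma, adjusted p = 0.0393). The call was lost without the filter (1.77, adjusted p = 0.0519), with library sizes alone (1.03, adjusted p = 0.12) and when any sample but floxed 3 was left out (1.59 to 2.28, adjusted p = 0.0638 to 0.143). The GC-corrected value of 5.06 (adjusted p = 0.02) rests on a thin part of the curve, since only 12 tested genes lie within 1 percentage point of its 67.15% GC. *Cebpb* (ENSMUSG00000056501, chr2:167688915-167690418) is a gene of 1 exon that overlaps *Tmem189* on the opposite strand. *Tmem189* had 749 to 1674 raw counts in floxed and 205 to 432 in H3atKO samples. These counts are not scaled for library size, so no direction is read from them. The strand setting of the counting is not given in the sources used here.

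*Cebpd*, which acts beside *Cebpb*, was at 10.4, 2.84 and 9.07 cpm in floxed and at 8.57, 4.54 and 11.3 cpm in H3atKO samples. The ranges overlapped almost entirely. The log2 fold change was 0.22 (SE 0.613, interval -1.21 to 1.65; limma, adjusted p = 0.795), which leaves changes of more than 2-fold in both directions within the interval. After the GC correction it was 0.78 (interval -0.715 to 2.28; limma, adjusted p = 0.424). *Spidr*, on the opposite strand over *Cebpd*, had 374 to 473 raw counts in floxed and 127 to 246 in H3atKO samples. Since 3 counts were worth 0.0659 to 0.0729 cpm in floxed and 0.124 to 0.19 cpm in H3atKO samples, these unscaled counts give no direction for *Spidr*.

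The samples of a genotype differed in the same way for most members. Floxed sample 1 was the highest floxed sample for 8 of 9 members and floxed sample 3 the lowest for 6 of 9, while H3atKO sample 3 was the lowest of its group for 7 of 9. Between floxed samples 1 and 3 the log2 difference was 3.15 for *Ppard*, 2.09 for *Rxrb*, 1.85 for *Rxra* and 1.60 for *Rxrg*. It was 0.10 for *Ppara*, 0.26 for *Pparg* and 0.20 for *Cebpd*. The RXR genes thus differed between these control pools by nearly as much as, or more than, they did between genotypes. Floxed samples 1 and 3 had the highest and the lowest rho with GC content of the floxed group (0.8 and 0.0969).

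**Figure D2:**
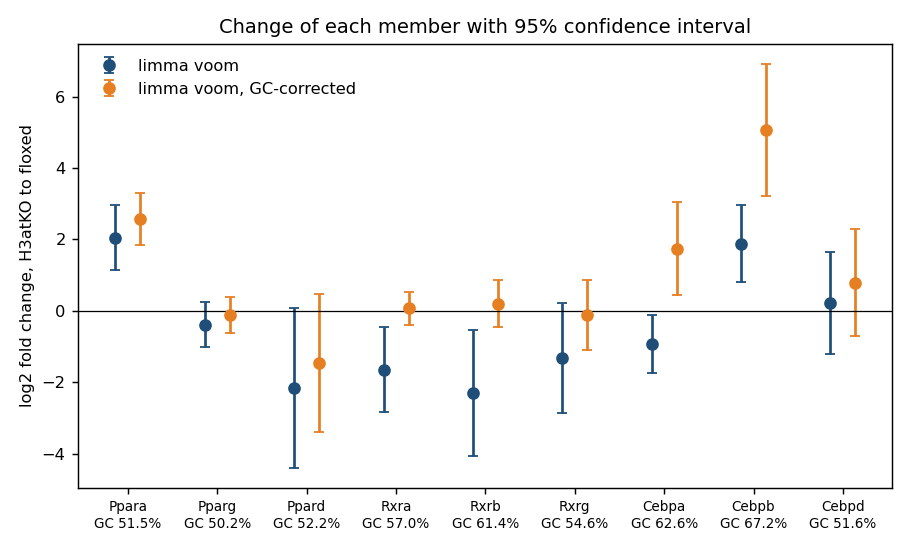
Log2 fold change of H3atKO to floxed (y axis) of each member with its 95% confidence interval, by limma voom as fitted (blue) and after the GC correction (orange), with the GC content of the transcript under each symbol. The values of *Rxra* and *Rxrb* move to near 0 with the correction, that of *Cebpa* changes sign, and *Ppara* and *Cebpb* stay above 0.

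**Figure D3:**
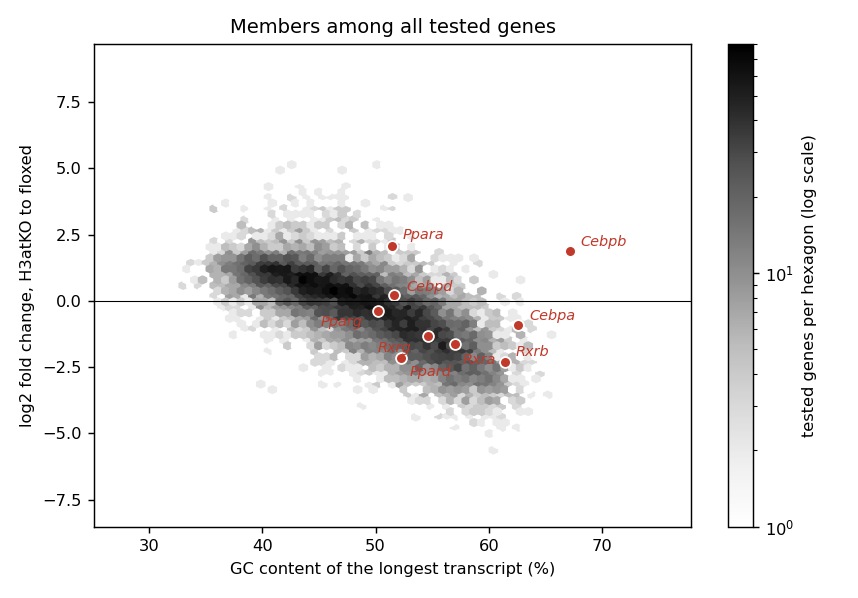
Log2 fold change of H3atKO to floxed (y axis) against the GC content of the longest transcript (x axis, %) for the tested genes with an annotated transcript, shaded by the number of genes in each hexagon on a log scale, with the 9 members as red points. *Rxra*, *Rxrb* and *Rxrg* lie within the falling band of all genes, and *Ppara*, *Cebpa* and *Cebpb* lie above it.

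The curve of all genes on GC content gave a difference between the genotypes, H3atKO minus floxed on the log2 scale, for each member's composition. It was -0.54 for *Ppara*, -0.26 for *Pparg*, -0.71 for *Ppard* and -0.57 for *Cebpd*. It was larger for *Rxrg* (-1.22), *Rxra* (-1.75), *Rxrb* (-2.51), *Cebpa* (-2.68) and *Cebpb* (-3.20). For the 3 RXR genes this difference was close to the fitted log2 fold change, and for *Ppara* and *Cebpb* it had the opposite sign.

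Levels were compared between genes per kilobase of merged exons, by their ranges over the samples of a group and within each sample. In floxed samples *Cebpa* (79.8 ± 18.5 cpm per kb, SD, n = 3) and *Pparg* (71.4 ± 9.43) stood at the top and overlapped each other. *Rxra* came next with 17.3 ± 10.1 and was separated from its neighbours. *Rxrb* (4.3), *Rxrg* (3.44), *Cebpb* (2.0), *Cebpd* (1.98), *Ppard* (1.49) and *Ppara* (1.45 ± 0.223) followed, each overlapping the next, though *Rxrg* was above *Cebpb* in each of the 3 samples. In H3atKO samples *Pparg* (55.6 ± 15.7) and *Cebpa* (43.5 ± 18.7) were again at the top. Their ranges overlapped, but *Pparg* was above *Cebpa* in each of the 3 samples. *Cebpb* (7.08 ± 2.07) and *Ppara* (6.14 ± 2.22), among the lowest in floxed samples, now ranked beside *Rxra* (4.92 ± 1.25), and the ranges of these 3 overlapped as neighbours. Within samples, *Ppara* was above *Rxra* in all 3, and *Cebpb* above *Ppara* in 1. *Cebpd* (2.17), *Rxrg* (1.41) and *Rxrb* (0.819) followed, with *Rxrg* above *Rxrb* in each of the 3 samples. *Ppard* was last at 0.236 cpm per kb, below all samples of *Rxrb*. The order among overlapping genes depended on the length used: per kb of the longest transcript, floxed *Pparg* (99.2) stood above *Cebpa* (80.1), and *Ppard* (3.01) above *Cebpb* (2.0), *Cebpd* (1.98) and *Ppara* (1.63).

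*Ppara* made up 1.46 to 2.41% of the PPAR transcripts per kb in floxed samples and 7.83 to 11.7% in H3atKO samples. *Pparg* remained the main PPAR, with 94.0 to 97.2% and 87.8 to 91.7%, and the ranges did not overlap for either gene. Among the RXRs, *Rxra* held 69.2% ± 0.964 (SD, n = 3) in floxed and 70.7% ± 8.63 in H3atKO samples. *Rxrb* held 15.6 to 18.3% in floxed and 7.58 to 15.2% in H3atKO samples, without overlap, and *Rxrg* 12.1 to 16.1% and 11.9 to 23.6%. Among the C/EBPs, *Cebpb* held 1.39 to 3.19% in floxed and 7.96 to 21.8% in H3atKO samples, and *Cebpa* 93.6 to 97.8% and 71.3 to 90.4%.

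The balance between members was compared as the difference of their log2 cpm in each sample, for the 9 pairs within families. *Ppara* relative to *Pparg* was higher in H3atKO by 2.32 (SE 0.28) on the log2 scale, from -5.53 to -4.84 in floxed to -3.13 to -2.51 in H3atKO samples, and by 2.68 after the GC correction. *Ppara* relative to *Ppard* was higher by 3.86 (SE 0.87), and *Cebpb* relative to *Cebpd* by 1.51 (SE 0.42). *Cebpa* relative to *Cebpb* was lower, at -2.65 (SE 0.6). In these 4 pairs the genotypes did not overlap, with or without the GC correction, and each had p = 0.1 in a two-sided exact permutation test (adjusted p = 0.18 over the 9 pairs), the smallest p that 3 samples against 3 can give. Of the 3 pairs of RXR genes, *Rxrb* to *Rxrg* was lower by -0.94 (exact permutation p = 0.1), and the differences of *Rxra* to *Rxrb* (0.50) and *Rxra* to *Rxrg* (-0.45) had an exact permutation p = 0.3. After the GC correction these 3 differences were 0.31, -0.08 and 0.22 (exact permutation p = 0.6, 0.9 and 0.9), so their signs changed but no direction was clear.

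**Figure D4:**
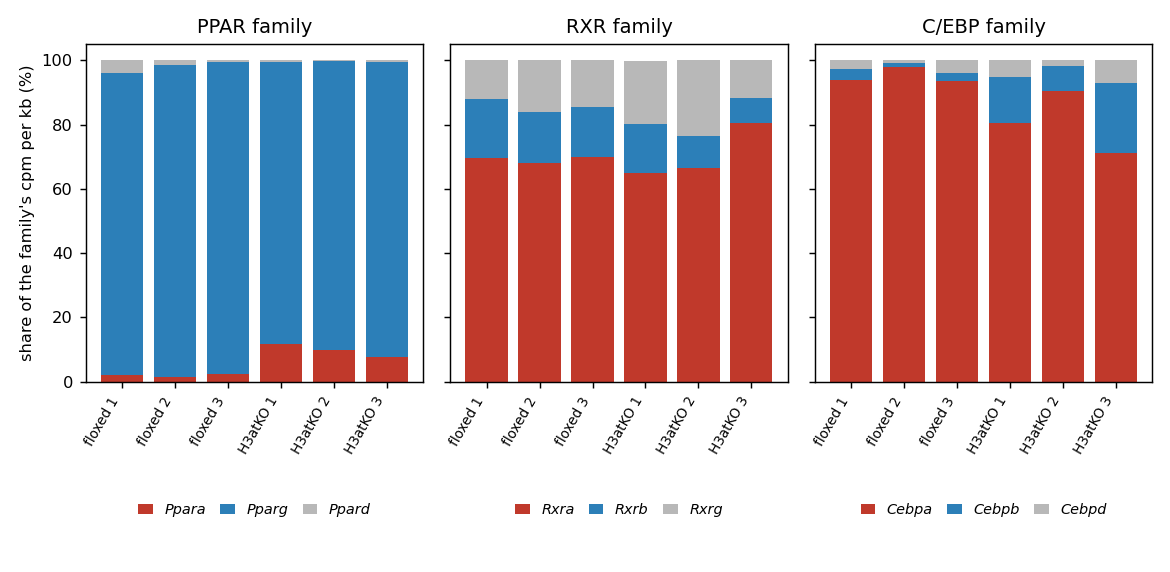
Share of each family's cpm per kb of exon (y axis, %) held by its 3 members in each of the 6 samples (stacked bars, 1 per sample). The *Ppara* share is 7.83 to 11.7% in H3atKO against 1.46 to 2.41% in floxed samples, the *Cebpb* share 7.96 to 21.8% against 1.39 to 3.19%, and *Rxra* holds the larger part of the RXR family in all 6.

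The 30 listed genes that PPARα is known to activate, most of them enzymes of fatty acid oxidation, contain 28 tested genes, of which 10 rose and 3 fell (35.7% and 10.7%, beside 9.42% and 7.07% of all tested genes). Their median log2 fold change was 0.94, and 1.31 after the GC correction, when 13 were called higher and 1 lower (background 5.55% and 3.06%). With the replicate block 15 were higher and 6 lower (background 24.8% and 28.7%). The count of 10 and 3 became 1 and 0 without floxed sample 2, 6 and 0 without floxed sample 1, 5 and 0 without H3atKO sample 1 or 3, 5 and 1 without H3atKO sample 2, and 10 and 5 without floxed sample 3. Calls over all tested genes moved as well. They were 149 and 90, 1 and 0, and 2729 and 3828 without floxed samples 1, 2 and 3. Without H3atKO samples 1, 2 and 3 they were 199 and 47, 395 and 139, and 87 and 20. *Ehhadh*, of the peroxisomal oxidation pathway, rose from 114 cpm ± 43.2 to 3600 ± 965 (SD, n = 3), a log2 fold change of 5.03 (SE 0.382; limma, adjusted p = 0.00615). *Pdk4*, the kinase that shuts off pyruvate dehydrogenase, rose from 765 to 2990 cpm (log2 1.91; limma, adjusted p = 0.0245). It was not called after the GC correction (adjusted p = 0.0969). Some genes of mitochondrial oxidation rose as well, *Acadl* from 412 to 2200 cpm, *Acadm* by 1.32, *Hadha* by 1.39, *Hadhb* by 3.05, *Cpt2* by 1.32, *Slc25a20* by 1.73 and *Etfdh* by 2.48 on the log2 scale. Others did not, such as *Acadvl* and *Acaa2*, named here after their values were seen. They had -0.44 and -0.73 (limma, adjusted p = 0.583 and 0.204), and 0.58 and 0.08 after the GC correction. Genes of the list that were called lower included *Cpt1a*, the carnitine transferase of the outer mitochondrial membrane, and *Angptl4*, a secreted inhibitor of lipoprotein lipase. They had log2 fold changes of -1.15 and -2.39, and neither was called after the GC correction (adjusted p = 0.0726 and 0.0729). *Plin2*, a droplet coat protein, was at 535 ± 332 cpm in floxed and 884 ± 557 in H3atKO samples and was not called.

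Of the PPARγ targets, genes of fat cell lipid uptake and storage, 22 were tested, of which 3 rose and 0 fell (13.6% and 0%, background 9.42% and 7.07%). The block called 6 higher and 6 lower (background 24.8% and 28.7%), and edgeR 3 and 2 (background 12.8% and 18.4%). Those that rose by limma were *Lpl*, lipoprotein lipase, *Acsl1*, an acyl-CoA synthetase, and *Gk*, glycerol kinase. *Lpl* went from 9240 cpm ± 1310 to 39800 ± 16300, a log2 fold change of 2.02 (SE 0.386; limma, adjusted p = 0.0253). *Gk* went from 10.5 to 197 cpm (log2 3.96; limma, adjusted p = 0.0149). After the GC correction 3 were again called higher and 0 lower (background 5.55% and 3.06%). *Gk* was among them, *Lpl* and *Acsl1* were not (adjusted p = 0.0532 and 0.067), and *Cidea* and *Agpat2*, named here after their values were seen, were added (adjusted p = 0.0228 and 0.031). Other abundant genes of the list, *Fabp4*, the fatty acid carrier (15900 ± 4850 and 16300 ± 4980 cpm), and *Scd1*, a desaturase (28100 ± 6830 and 54800 ± 7460 cpm), were not called, with log2 fold changes of 0.05 and 0.99, though the block called *Scd1* higher (adjusted p = 0.0448). *Cd36*, the fatty acid transporter, had 0.83 (adjusted p = 0.0873 by limma, 0.0424 with the block), and -0.30 after the GC correction (limma, adjusted p = 0.573). The 6 that the block called lower, also named after their values were seen, were *Lipe*, *Pnpla2*, *Slc2a4*, *Cidec*, *Aqp7* and *Slc27a1* (adjusted p = 0.0044 to 0.0212). Their log2 fold changes by limma were -3.04, -2.06, -1.49, -1.49, -0.92 and -1.54. After the GC correction they were -1.60, -0.31, -0.30, 0.14, -0.76 and 0.18, and none was called (limma, adjusted p = 0.132 to 0.841). With the block and the correction together *Lipe* was called lower (adjusted p = 0.036) and the others were not. By edgeR *Lipe* and *Slc2a4* were called lower (adjusted p = 0.0318 and 0.0399). The median of the list was -0.20, and 0.58 after the GC correction.

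Of 9 C/EBP targets 2 rose and 0 fell (22.2% and 0%, background 9.42% and 7.07%). The block called 2 higher and 5 lower (background 24.8% and 28.7%), and edgeR 2 and 2 (background 12.8% and 18.4%). The list's median was -1.57 as fitted and -0.41 after the GC correction. Those that rose were the acute phase genes *Orm1*, from 74.7 cpm ± 25.2 to 193 ± 58.5, and *Orm2*, from 0.52 cpm ± 0.201 to 5.5 ± 2.93 (limma, adjusted p = 0.0365 and 0.0241). *Orm1* and *Orm2* are near-identical neighbours, so the split of reads between them is uncertain. The adipokine genes *Lep* (725 and 160 cpm) and *Retn* (456 and 169 cpm), with *Hp* (506 and 109 cpm) and *C3* (719 and 278 cpm), had lower means in H3atKO mice and were not called by limma. The block called *Retn*, *Hp* and *C3* lower (adjusted p = 0.00597, 0.00489 and 0.0214) and gave *Lep* an adjusted p of 0.157. After the GC correction *Retn*, *Hp* and *C3* had log2 fold changes of -1.47, -0.70 and -0.41 and were not called (limma, adjusted p = 0.0974, 0.364 and 0.522). With the block and the correction together *Retn* was called lower (adjusted p = 0.0197), and *Hp* and *C3* were not.

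**Figure D5:**
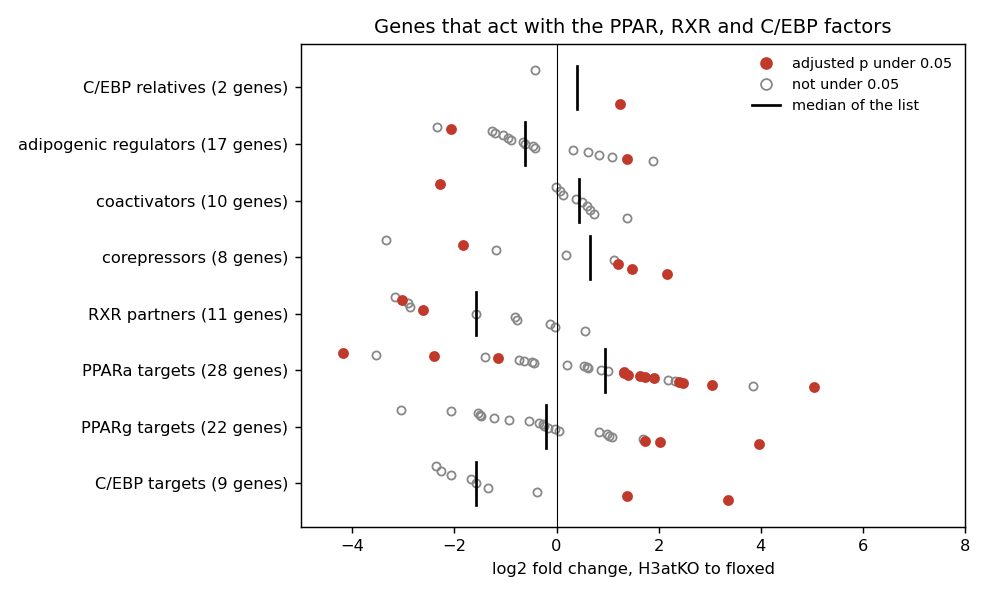
Log2 fold change of H3atKO to floxed (x axis) of the tested genes of 8 lists of genes that act with the PPAR, RXR and C/EBP factors (rows), filled red where the limma adjusted p was under 0.05 and open grey elsewhere; the black bar is the list's median. The PPARa targets hold 10 genes that rose and 3 that fell, and their median is 0.94.

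Of the coactivators, 0 of 10 rose and 1 fell, *Carm1*, an arginine methyltransferase (33.1 to 7.02 cpm, log2 -2.28; limma, adjusted p = 0.0494), which was not called after the GC correction (adjusted p = 0.31). The background by limma was 9.42% higher and 7.07% lower. The block called 5 higher and 1 lower (background 24.8% and 28.7%). The GC correction gave 2 higher and 0 lower (background 5.55% and 3.06%), and edgeR 1 and 1 (background 12.8% and 18.4%). The p160 coactivators *Ncoa1*, *Ncoa2* and *Ncoa3* had log2 fold changes of 0.38, 0.74 and -0.02, *Ncoa6* 0.07 and the acetyltransferase *Ep300* 0.60. Of these 5, the block called *Ncoa2* and *Ep300* higher (adjusted p = 0.0223 and 0.0454). The list's median was 0.44 (0.42 after the GC correction).

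Of the 8 corepressor genes, 3 rose and 1, *Hdac3*, fell (37.5% and 12.5%, background 9.42% and 7.07%). The block called 4 higher and 3 lower (background 24.8% and 28.7%). By limma the following rose. *Tbl1x* and *Tbl1xr1*, the exchange factors of the NCoR complex, rose from 158 to 371 and from 43.4 to 193 cpm, and *Nrip1*, a corepressor of oxidative genes in fat, from 92.7 to 261 cpm (limma, adjusted p = 0.0386, 0.0136 and 0.0418). Of these 3, *Tbl1xr1* was also called after the GC correction (adjusted p = 0.013). *Ncor1*, the scaffold of the complex, was at 270 ± 55.4 and 305 ± 40.9 cpm and was not called (adjusted p = 0.576), and *Sirt1* had 1.13 (adjusted p = 0.0605, and 0.00724 with the block). The list's median was 0.66 (0.46 after the GC correction).

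Of 11 tested nuclear receptors that share RXR as a partner, 0 rose and 2 fell (0% and 18.2%, background 9.42% and 7.07%). Neither was called after the GC correction, when the count was 0 in both directions (background 5.55% and 3.06%). The block called 1 higher and 6 lower (background 24.8% and 28.7%), and edgeR 0 and 6 (background 12.8% and 18.4%). *Rarg*, a retinoic acid receptor, went from 40.5 cpm ± 15.3 to 6.37 ± 1.35 (log2 -2.61, SE 0.437; limma, adjusted p = 0.0206). *Thra*, a thyroid hormone receptor, went from 63.3 ± 34.5 to 6.97 ± 2.78 (log2 -3.03, SE 0.698; limma, adjusted p = 0.0347). *Nr1h2* and *Nr1h3*, the liver X receptors, had -2.90 and -2.87 (adjusted p = 0.0723 and 0.0571; both 0.00304 with the block), and *Thrb* had 0.55 (adjusted p = 0.144, and 0.0449 with the block). After the GC correction *Nr1h2*, *Nr1h3* and *Thrb* had -0.56, -1.18 and -0.08 (limma, adjusted p = 0.275, 0.12 and 0.841). With the block and the correction together *Nr1h3* was called lower (adjusted p = 0.037), and *Nr1h2* and *Thrb* were not called (adjusted p = 0.127 and 0.774). The median of the list was -1.57, and -0.56 after the GC correction.

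Of 17 tested further regulators of adipogenesis 1 rose and 1 fell (5.88% each, background 9.42% and 7.07%). The block called 3 higher and 8 lower (background 24.8% and 28.7%), and the GC correction gave 0 and 1 (background 5.55% and 3.06%). *Creb1*, which switches on *Cebpb* early in adipogenesis, rose from 50.7 cpm ± 13.0 to 138 ± 62.0 (log2 1.38; limma, adjusted p = 0.0441), but not after the GC correction (adjusted p = 0.328). *Tle3*, a cofactor of PPARγ in white fat, fell by 2.06 on the log2 scale (limma, adjusted p = 0.0436; 0.0887 after the GC correction). *Ebf1*, *Ebf2*, *Klf4* and *Nr3c1*, the glucocorticoid receptor, had -0.41, -0.89, -0.66 and 0.84 and were not called, though *Ebf2* was after the GC correction (adjusted p = 0.0233), and the block called *Ebf2*, *Klf4* and *Nr3c1* (adjusted p = 0.00973, 0.0446 and 0.00986). After the GC correction *Klf4* and *Nr3c1* had 0.54 and -0.03 (limma, adjusted p = 0.477 and 0.941). The median of these regulators was -0.61, and 0.32 after the GC correction. Of the remaining C/EBP genes *Cebpg*, a partner without an activation domain, rose to 243 cpm ± 75.7 from 85.8 to 113 in the floxed samples (log2 1.24; limma, adjusted p = 0.0353; 0.138 after the GC correction), and *Ddit3*, the stress-induced member, had -0.43 (adjusted p = 0.407).

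The genes with the profile most like each member over the 6 samples were found among 11642 candidates by the root mean square difference of mean-centred log2 cpm. *Ppara* was nearest to *Apmap* (0.159) and to *Pdk4* (0.226), against its own SD of 1.18 on that scale. *Pparg* was nearest to *Myadm* (0.0658) and *Mrpl49* (0.0677), and *Cebpa* to *Aqp7* (0.0997), the adipocyte glycerol channel, and *Aamdc* (0.116). *Rxra* had *1810055G02Rik* (0.0799) and *Polr2c* (0.0805), *Rxrb* had *Ddx49* (0.0949) and *Coro1b* (0.0969), and *Rxrg* had *Clpb* (0.107) and *Slc48a1* (0.122). *Ppard* had *Rpl18* (0.141) and *Ubb* (0.164). *Cebpb* and *Cebpd* had no close neighbour, with 0.278 for *Rapgef4* and 0.284 for *Mpc1*, and 0.356 for *Bub1b* and 0.362 for *Pycard*. With 6 samples in 2 groups and so many candidates, such likeness describes these libraries.

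White adipocyte markers were present in both groups, with summed levels of 13400 to 27700 cpm in floxed and 15300 to 26500 cpm in H3atKO samples, most of it *Fabp4* (10300 to 22100 cpm over all samples). Of the 6, 1 was higher by its mean in H3atKO and 5 were lower, with a median log2 fold change of -1.36, and 0 were called (0 and 2 with the block). The background for these and the marker calls below was 9.42% higher and 7.07% lower by limma, and 24.8% and 28.7% with the block. Brown adipocyte markers summed to 38.5 to 93.8 cpm in floxed and 269 to 1110 cpm in H3atKO samples, with 5 of 6 higher by their means and 1 called (4 with the block). Most of the H3atKO sums was *Elovl3* (722, 283 and 172 cpm in samples 1, 2 and 3). *Ucp1* was at 158, 1.33 and 11.5 cpm in these samples and at 12.6, 0.577 and 3.33 cpm in floxed ones (limma, adjusted p = 0.353, and 0.00536 with the block). Stromal progenitor markers were lower in H3atKO for 7 of 7 by their means (1570 to 4970 and 1100 to 1640 cpm), with 1 called lower (3 with the block). Floxed sample 3 held the highest sum, 4970 cpm against 1570 and 1620 cpm in floxed samples 1 and 2. It also held the highest macrophage sum, 2160 cpm against 540 and 382 cpm. Of the endothelial markers 3 of 6 were called lower (643 to 959 and 433 to 575 cpm; 4 with the block), and of those of Schwann cells 1 of 4 (89.3 to 118 and 44.7 to 63.5 cpm; 3 with the block). Macrophage markers summed to 382 to 2160 and 344 to 604 cpm with 1 of 7 called lower, lymphocyte markers to 44.4 to 321 and 68.8 to 498 cpm, neutrophil markers to 5.48 to 9.33 and 3.62 to 5.15 cpm, and mammary epithelial markers to at most 3.5 and 9.04 cpm, with 0 called in the last 3 and in skeletal muscle (3 lymphocyte markers were called higher with the block). No tested marker was at 0 in all 6 samples. The part of these cells in the members' values was not tested. In whole tissue, fewer cells of a type and less RNA per cell cannot be told apart.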

How the data were processed

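The authors deposited, per the labels and the study's methods, raw counts of reads per Ensembl gene, 1 file for each of 6 pools. Poly(A)-selected stranded libraries were trimmed with Cutadapt 1.3, aligned to GRCm38 with STAR 2.4.2a and counted with HTSeq 0.6.1, without normalization. Tallies of reads given to no gene were left out. Alignments at several places made up 28.3 to 35.2% in floxed and 43.8 to 45.5% in H3atKO samples.

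From these counts, 14967 genes reached 1 cpm in 1 or more samples and were tested, all 9 members included. They were scaled by TMM (edgeR 4.0.16) and compared with limma 3.58.1 (voom) in R 4.3.3, at a Benjamini-Hochberg adjusted p of 0.05 over all tested genes. Symbols, positions, exon lengths and GC content came from GENCODE M21, which held 46005 of the identifiers. The GC correction subtracted, in each library, a robust loess curve (span 0.3) of log2 cpm minus the mean over samples on GC content, over 14922 genes. Intervals do not include the error of this curve. PCR copies were not marked, so floors of 3 counts cover counting error only.

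Same-numbered samples deviated together from their group means (r across genes 0.51, 0.389 and 0.264 for numbers 1, 2 and 3, genes not being independent replicates), although the labels do not say what the number stands for. The number was therefore also fitted as a block. Other alternatives were edgeR's test and DESeq2 1.42.0, library sizes alone or RLE factors, no filter or a minimum of 10 counts in all samples, quality weights, other thresholds, no mitochondrially encoded genes, and each sample left out. The procedures were tested on simulated counts.

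Genes named are the 9 members, genes of the lists that were called or were among the 5 most abundant of their list, the 2 genes most like each member, and *Hdac3*; a few were named for a count, and some genes that meet the rule are not reported here. Members, lists and markers were chosen with earlier results of these data known. Listed but under the filter were *Cebpe*, *Klf5*, *Dlk1*, *Nr1i2*, *Nr1i3*, *Cpt1b* and *Cyp4a14*, and *Gyk* is an older name of *Gk*.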

Additional observations from a re-analysis of the deposited data

How the results depend on the processing

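With 3 pools per genotype, the number of calls moved widely between settings. Against 1410 tested genes called higher and 1058 lower, edgeR called 1916 and 2749, DESeq2 2935 and 3465, library sizes alone 306 and 5667, RLE factors 1622 and 1095, no filter 1092 and 1327, at least 10 counts in all samples 1575 and 1864, quality weights 4003 and 4440, the replicate block 3717 and 4290, the GC correction 830 and 458, both together 1955 and 1453, a threshold of 0.1 gave 2804 and 3182 and one of 0.01 gave 65 and 17. Leaving out 1 sample gave 1 to 2729 higher and 0 to 3828 lower, the extremes without floxed replicate 2 and without floxed replicate 3. Of the members, 2 were called higher and 0 lower; edgeR, DESeq2 and a threshold of 0.1 called 3 lower, quality weights and the block 5, at least 10 counts 2, and the GC correction with the block 1. Library sizes alone called 0 higher and 6 lower, with the median of all tested genes at -0.95 on the log2 scale, so that values of the members are to be read against that shift; no filter called 1 higher, and a threshold of 0.01 called 0. Leaving out 1 sample called 0 to 2 members higher and 0 to 5 lower (2 and 5 without floxed replicate 3, 1 and 0 without H3atKO replicate 3, 0 and 0 without each of the other 4). The sign of the value changed for *Rxra* (0.077 after the GC correction, 0.067 after it with the block), *Rxrb* (0.19 and 0.33) and *Cebpa* (1.74 and 1.74). It also changed for *Cebpd* with library sizes alone (-0.64) and in leave-one-out fits (-0.36 to 0.57). After the GC correction it changed for *Rxra* to *Rxrb* (-0.081), *Rxra* to *Rxrg* (0.22), *Rxrb* to *Rxrg* (0.31) and *Cebpa* to *Cebpd* (0.94). The corrected values of *Rxra* and *Rxrb* were near 0. For the lists beside the PPARα targets, leaving out 1 sample gave at most 4 genes higher and 7 lower, and 0 in both directions in every such list without floxed replicate 2; without floxed replicate 3 the PPARγ targets had 3 higher and 7 lower, the C/EBP targets 2 and 4, the RXR partners 0 and 5, the corepressors 4 and 3, the coactivators 2 and 1, the adipogenic regulators 1 and 7 and the C/EBP relatives 1 and 0. The block changed no call of a member other than those of *Ppard*, the RXR genes and *Cebpa*. The other causes were not tested.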
